A study of Homo sapiens with 4 samples.

Results

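Expression of 48 genes of the lysosome and of autophagy was followed in BE(2)C cells in which MYCN had been knocked down. The genes were taken by symbol from a list of transcription factors, lysosomal enzymes, lysosomal membrane proteins, proton pump subunits and autophagy proteins. All 48 symbols were found among the 26364 genes listed in each sample. BE(2)C is a human neuroblastoma line with amplified MYCN, the gene of a MYC family transcription factor. RNA sequencing (RNA-seq) covered 4 samples, 2 of cells given a non-targeting siRNA (Ctrl) and 2 of cells given an siRNA against MYCN (MYCN KD). Both groups were the same wild type line and received the siRNA in a lipid reagent, at 80 nM for 6 h per the labels, and RNA was taken on the day after. The study's methods give another siRNA concentration. The knockdown was partial and transient, in 1 line, and nothing in the labels says that the samples of a group came from separate cultures. The p-values therefore measure only the spread between these samples, which may be technical.

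The lysosome is the acidic organelle in which hydrolases break down proteins, lipids and sugars, and the V-ATPase pumps the protons that keep it acidic. In autophagy, cytoplasm and cargo are enclosed in a double membrane built by the ATG proteins, marked with lipid-bound LC3 and GABARAP proteins and then fused with the lysosome. Many of these genes are known targets of the MiT/TFE transcription factors, of which TFEB is the best known, and mTORC1 at the lysosomal surface holds these factors in the cytoplasm when nutrients are plentiful. MiT/TFE factors and the MYC family both bind DNA at E-boxes with the core CACGTG.

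For that reason the promoters of the genes were read from the RefSeq sequences of build GRCh38.p14, from 250 bases before to 50 bases after the start site. A promoter was found for 38 of the 48 genes. CACGTG, which reads the same on both strands, was present for 9 of the 38 (23.7%), against 8.77% of all 27305 genes with a promoter. The longer TCACGTGA, which contains CACGTG and is also the same on both strands, was present for 6 of the 38 (15.8%), against 1.18% of all genes. By promoter, CACGTG was in 10 of 50 and TCACGTGA in 7 of 50, against 7.26% and 0.980% of all 35116 promoters. These backgrounds include many genes too low in these cells to be tested below. Among the 12340 promoters of all tested genes the shares were higher, 9.74% for CACGTG and 1.77% for TCACGTGA. The excess of the list was therefore smaller against tested genes than against all genes. A match describes the letters only and is no evidence of binding. The genes with CACGTG were CTSA, CTSD, CTSF, GAA, LAMP1, CLN3, MCOLN1, ATP6V0D1 and ATG14. The promoters printed are the one with the most copies (LAMP1, 6 copies), that of the proton pump gene ATP6V0D1 and those of CTSA and CTSF, which have copies without a higher level in MYCN KD. CACGTG is in capitals. LAMP1 lies at chr13:113296989-113297288 on the plus strand, ATP6V0D1 at chr16:67481108-67481407 on the minus strand, CTSA at chr20:45891085-45891384 on the plus strand and CTSF at chr11:66568557-66568856 on the minus strand.
LAMP1: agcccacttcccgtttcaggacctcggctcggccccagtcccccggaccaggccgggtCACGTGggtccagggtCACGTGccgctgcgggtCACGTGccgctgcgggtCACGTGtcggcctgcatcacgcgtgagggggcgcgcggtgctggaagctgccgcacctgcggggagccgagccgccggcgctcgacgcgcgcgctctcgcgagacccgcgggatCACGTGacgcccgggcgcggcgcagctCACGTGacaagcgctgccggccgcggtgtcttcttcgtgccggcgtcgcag
ATP6V0D1: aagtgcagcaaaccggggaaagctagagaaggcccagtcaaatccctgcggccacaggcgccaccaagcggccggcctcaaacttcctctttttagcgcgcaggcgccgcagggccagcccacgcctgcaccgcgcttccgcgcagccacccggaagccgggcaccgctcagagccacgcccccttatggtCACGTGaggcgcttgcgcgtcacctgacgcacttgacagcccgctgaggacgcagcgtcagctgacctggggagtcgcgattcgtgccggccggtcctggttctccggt
CTSA: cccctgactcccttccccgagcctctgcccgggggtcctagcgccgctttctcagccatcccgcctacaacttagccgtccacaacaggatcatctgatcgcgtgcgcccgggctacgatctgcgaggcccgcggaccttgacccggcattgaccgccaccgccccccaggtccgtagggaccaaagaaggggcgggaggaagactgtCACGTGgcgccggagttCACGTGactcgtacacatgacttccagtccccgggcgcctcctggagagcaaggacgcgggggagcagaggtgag
CTSF: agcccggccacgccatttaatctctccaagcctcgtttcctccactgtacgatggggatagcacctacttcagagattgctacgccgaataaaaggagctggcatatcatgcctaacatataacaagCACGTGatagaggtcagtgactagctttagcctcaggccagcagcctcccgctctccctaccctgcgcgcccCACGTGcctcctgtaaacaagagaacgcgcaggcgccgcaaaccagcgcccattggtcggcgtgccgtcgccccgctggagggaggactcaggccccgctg

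The values are RPKM, reads scaled to gene length and to the total of the sample, which the authors computed from counts already normalized. Totals of 29055819 to 34142988 reads per sample were recovered from these values. The samples of a group correlated at 0.998 across all listed genes and samples of different groups at 0.989 to 0.990. The departures of the replicates from their group means were nearly mirror images in Ctrl and MYCN KD (r = -0.985 across 11411 genes, which are not independent), and in 45 of the 45 tested lysosome and autophagy genes the replicates stood in opposite order in the 2 groups. The deposited replicates may therefore not be independent samples, and each SE and p-value rests on their spread as deposited. MYCN itself was at 1068 and 1073 RPKM in Ctrl and at 720.2 and 718.0 RPKM in MYCN KD. Both MYCN KD samples were below both Ctrl samples, and MYCN fell by 0.57 on the log2 scale (SE 0.029, limma, adjusted p = 0.00361), to 0.672 times its Ctrl mean. Its paralog MYC was at 0.780 and 0.542 RPKM in Ctrl and at 6.73 and 9.32 RPKM in MYCN KD, a rise of 2.43 on the log2 scale (adjusted p = 0.00497). With a Ctrl mean of 0.661 RPKM, MYC met the minimum for testing, a mean of 1 RPKM over the samples, only through MYCN KD. All 8 markers of neuroblastoma were expressed. Of 4 leukocyte and macrophage markers, AIF1 was listed at 0 in every sample, and PTPRC reached 0.00464 and CSF1R 0.124 RPKM at most. CD14, the main part of their sum, was at 1.74 and 1.51 RPKM in Ctrl and at 1.52 and 1.75 RPKM in MYCN KD. CD14 was tested and not called (limma, adjusted p = 0.921). The summed level of the 4 was 1.60 to 1.86 RPKM in Ctrl and 1.59 to 1.84 RPKM in MYCN KD. The summed level of 5 fibroblast markers was 12.6 and 15.0 RPKM in Ctrl, against 19.6 and 16.7 RPKM in MYCN KD. Of the 3 fibroblast markers tested, COL1A1 and DCN were higher and LUM was not called, while COL1A2, a defining marker, stayed at or below 0.0254 RPKM. COL1A1, with a Ctrl mean of 0.733 RPKM, also met the minimum for testing only through MYCN KD. The part of the fibroblast markers in the results was not tested.

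Of the tested lysosome and autophagy genes, more were called higher than lower in MYCN KD. The limma test was run on log2(RPKM + 1) for 11411 genes whose RPKM averaged 1 or more over the samples, and p-values were adjusted over all of them by Benjamini-Hochberg, at a threshold of 0.05. This scale understates the change of genes with low RPKM. Of the 48 genes, 45 passed the minimum, and MITF, CTSZ and ULK2 did not. In MYCN KD, 21 of the 45 were higher (46.7%), against 25.3% of all tested genes, and 2 were lower (4.44%), against 22.8% of all tested genes. The other 22 did not pass. Both MYCN KD values were above both Ctrl values for 33 of the 45 (73.3%), against 40.4% of all tested genes, and below them for 4 (8.89%), against 35.8%, and the groups overlapped for the other 8. The median log2 fold change was 0.26 over the 45 genes, with a range from -0.28 to 2.16, and 0.026 over all tested genes. Without the minimum all 48 genes were tested, and 18 were higher and 3 were lower (CTSF, GLA and MITF), against 17.0% and 13.0% of the 19908 genes tested in that fit. In bulk RNA a higher level in each cell and a larger share of cells with a high level cannot be told apart.

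**Figure D1:**
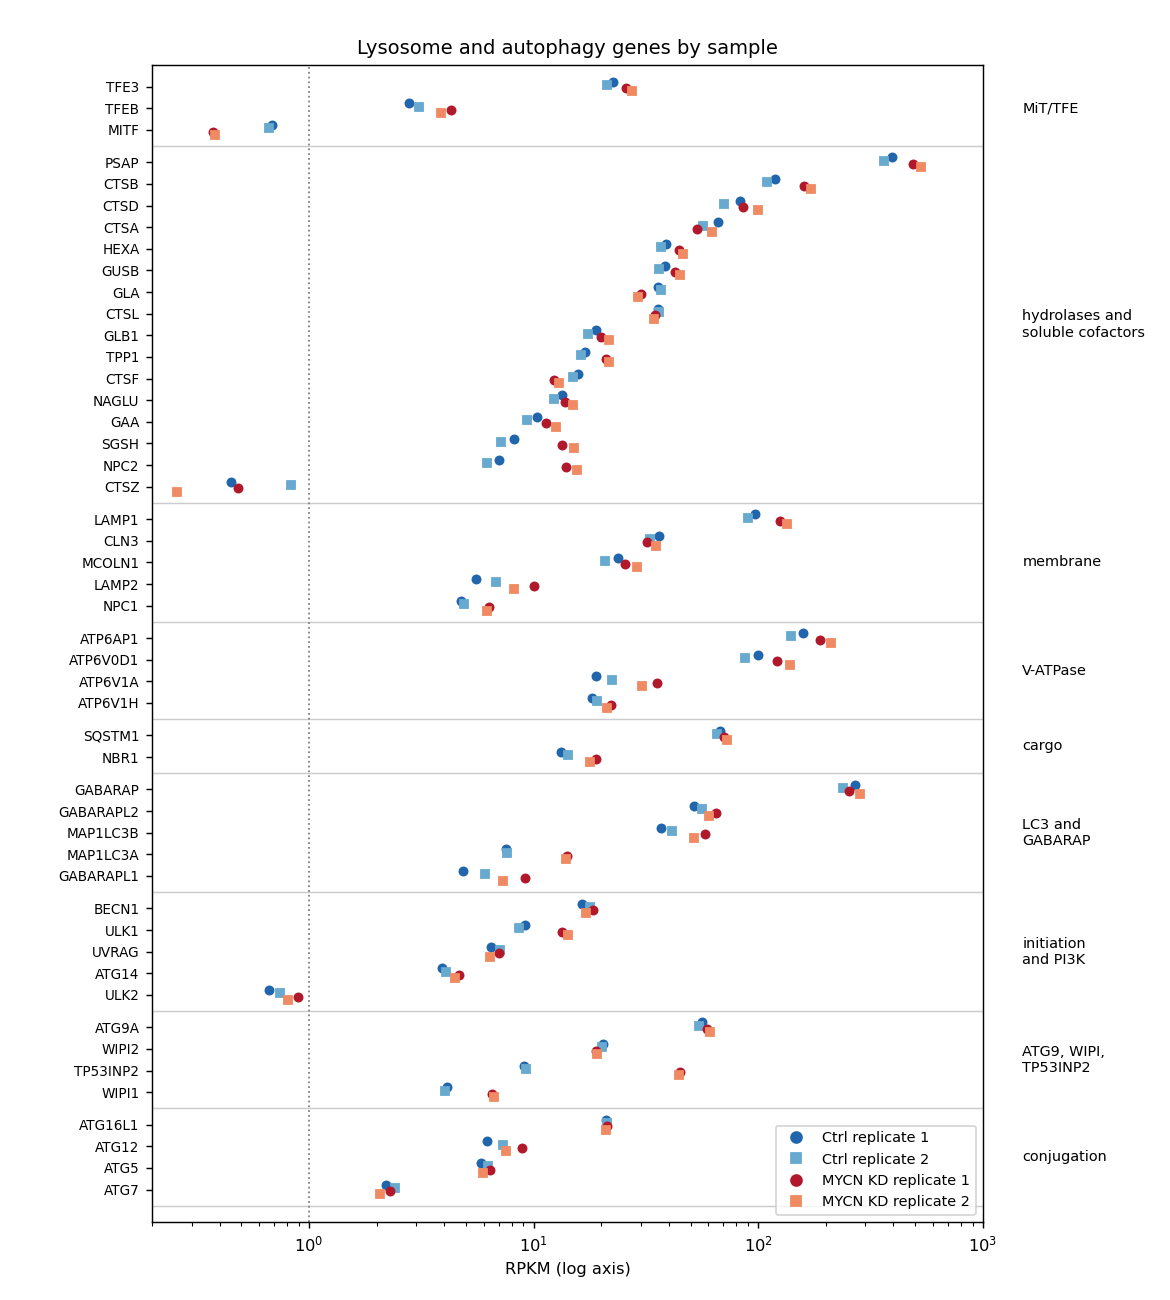
Level of each of the 48 genes in each of the 4 samples, in RPKM on a log axis, with Ctrl in blue and MYCN KD in red or orange and the dotted line at 1 RPKM. Ctrl means ran from 0.642 RPKM (CTSZ) to 379.4 RPKM (PSAP), and TP53INP2 shows the widest gap between the groups among the genes above the line.

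The levels of the genes spanned a wide range in Ctrl. Per kilobase, PSAP was the highest, followed by GABARAP, ATP6AP1, CTSB, ATP6V0D1 and LAMP1, and the Ctrl samples of ATP6V0D1 (100.2 and 87.5 RPKM) and LAMP1 (97.0 and 90.1 RPKM) overlapped. The median Ctrl mean of the 48 genes was 17.7 RPKM. At least 178 reads (NPC2) and up to 46306 reads (PSAP) lay behind each value of the 45 tested genes. Summed over the 48 genes, the level was 2003 and 1875 RPKM in Ctrl, against 2343 and 2497 RPKM in MYCN KD, 1.25 times the Ctrl mean.

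Both tested MiT/TFE factors were higher in MYCN KD. TFEB, the central activator of lysosomal genes, was at 2.79 and 3.10 RPKM in Ctrl and at 4.27 and 3.85 RPKM in MYCN KD. Both MYCN KD samples were above both Ctrl samples, and the rise was 0.36 on the log2 scale (SE 0.072, adjusted p = 0.0283). TFE3, its close relative, was more abundant, at 22.5 and 21.1 RPKM in Ctrl and at 25.7 and 27.3 RPKM in MYCN KD. Again the groups did not overlap, with a rise of 0.27 (SE 0.056, adjusted p = 0.0307). MITF, the melanocyte member of the family, was below the minimum, at 0.682 and 0.662 RPKM in Ctrl and at 0.373 and 0.382 RPKM in MYCN KD. Its MYCN KD values were both below its Ctrl values. TFEC, the remaining member of the family and not one of the 48, was listed at 0 in every sample. Leaving out 1 sample ended both calls. In such fits, here and below, adjusted p-values of large changes came out far smaller than with all 4 samples. The p-values of these fits and of the main fit are therefore not comparable. A call gained or lost there need not mean a changed difference. The rise was 0.30 to 0.42 for TFEB and 0.23 to 0.31 for TFE3 with 1 sample left out. Without Ctrl replicate 1 or MYCN KD replicate 1, TFEB had an adjusted p of 0.0828 or 0.0913. TFE3 had one of 0.144 without Ctrl replicate 2, 0.0504 without MYCN KD replicate 1 and 0.170 without MYCN KD replicate 2.

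The hydrolases and their soluble cofactors were the largest group, with 16 genes, and 15 were tested. MYCN KD had 7 of these higher (46.7%) and 2 lower (13.3%), against 25.3% and 22.8% of all tested genes, with a median log2 fold change of 0.25. The largest rise was that of NPC2, which binds cholesterol in the lysosomal lumen and passes it to NPC1 (chromosome 14, 74942895 to 74960880 in GRCh37, minus strand). It was at 6.99 and 6.21 RPKM in Ctrl and at 13.9 and 15.6 RPKM in MYCN KD. The groups were well apart, at a ratio of means of 2.23 and a log2 fold change of 1.05 (SE 0.089, adjusted p = 0.00597). SGSH, the sulfamidase that degrades heparan sulfate (chromosome 17, 78180515 to 78194722, minus strand), was at 8.15 and 7.17 RPKM in Ctrl and at 13.4 and 15.2 RPKM in MYCN KD. It was 1.87 times higher in MYCN KD, with no overlap and a log2 fold change of 0.82 (SE 0.095, adjusted p = 0.00949). Exons of SGSH share 230 bases with CARD14 and 8 bases with SLC26A11 on the opposite strand. Whether the counting used strand is not given in the sources used here. SLC26A11, a neighbour named for this overlap, was at 6.68 and 6.25 RPKM in Ctrl and at 12.6 and 13.4 RPKM in MYCN KD and was also higher (adjusted p = 0.00430), and CARD14 was below the minimum at 0.217 RPKM at most.

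CTSB, a cysteine protease and the most abundant cathepsin of the list, was at 118.7 and 109.1 RPKM in Ctrl and at 159.1 and 172.6 RPKM in MYCN KD. Its groups were apart, with a log2 fold change of 0.54 (SE 0.070, adjusted p = 0.0117). PSAP encodes prosaposin, the precursor of the saposins that present sphingolipids to their hydrolases (chromosome 10, 73576055 to 73611008, minus strand). It was at 394.4 and 364.5 RPKM in Ctrl and at 489.3 and 528.1 RPKM in MYCN KD. PSAP rose by 0.42 on the log2 scale (SE 0.066, adjusted p = 0.0171) and made up 43.8% of the summed level of its group in both Ctrl samples and 46.8% and 46.6% in the MYCN KD samples. TPP1, a tripeptidyl peptidase, was at 17.0 and 16.3 RPKM in Ctrl and at 20.9 and 21.8 RPKM in MYCN KD. Both MYCN KD values were the higher ones, with a log2 fold change of 0.34 (SE 0.045, adjusted p = 0.0120, and 0.0582 without MYCN KD replicate 2). HEXA, the alpha subunit of beta-hexosaminidase, and GUSB, beta-glucuronidase, also rose, by 0.26 and 0.23 (adjusted p = 0.0263 and 0.0432). Both calls were lost without Ctrl replicate 2 (adjusted p = 0.131 and 0.222) and without MYCN KD replicate 1 (0.0501 and 0.0779) or 2 (0.153 and 0.247), and that of GUSB also without Ctrl replicate 1 (0.0639).

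The 2 genes that fell were both in this group. CTSF, a cysteine protease with E-boxes in the promoter shown above, was at 15.8 and 15.0 RPKM in Ctrl and at 12.3 and 13.0 RPKM in MYCN KD. Both MYCN KD samples were lower, and CTSF fell by 0.26 on the log2 scale (SE 0.053, adjusted p = 0.0287). GLA, alpha-galactosidase A, was at 35.6 and 36.8 RPKM in Ctrl and at 30.1 and 29.2 RPKM in MYCN KD. It fell by 0.28 (SE 0.040, adjusted p = 0.0141), again without overlap. Exons of GLA share 557 bases, 8.99% of its exon bases, with RPL36A on the opposite strand, which was at 1.30 and 1.64 RPKM in Ctrl and at 1.08 and 0.866 RPKM in MYCN KD and did not pass (adjusted p = 0.0743). Each left-out sample ended the call of CTSF, at adjusted p from 0.0679 to 0.202, and GLA was not called without Ctrl replicate 2 (0.0848) or MYCN KD replicate 2 (0.0974).

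The other 6 tested hydrolases did not pass. The smallest difference was that of CTSL, a cysteine protease, at 35.8 and 36.2 RPKM in Ctrl and at 34.7 and 34.3 RPKM in MYCN KD. The difference was -0.06 on the log2 scale (SE 0.033, adjusted p = 0.219). CTSD, GAA, GLB1 and NAGLU had both MYCN KD values above both Ctrl values, with log2 fold changes of 0.15 to 0.27 and adjusted p from 0.0744 to 0.164. CTSD passed under quantile normalization (0.35, adjusted p = 0.0478), and its change was 0.16 to 0.38 with 1 sample left out. GAA and GLB1 passed under rescaling to equal totals (for GLB1 0.24, adjusted p = 0.0341). This set includes the aspartic protease cathepsin D (CTSD) and the acid alpha-glucosidase that degrades glycogen (GAA). CTSA, the carboxypeptidase that also protects beta-galactosidase, was at 66.0 and 56.7 RPKM in Ctrl and at 53.4 and 61.9 RPKM in MYCN KD, with overlapping groups (adjusted p = 0.571). CTSZ was below the minimum, between 0.259 and 0.834 RPKM, and 31.7% of its annotated exon bases overlap NELFCD on the opposite strand.

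**Figure D2:**
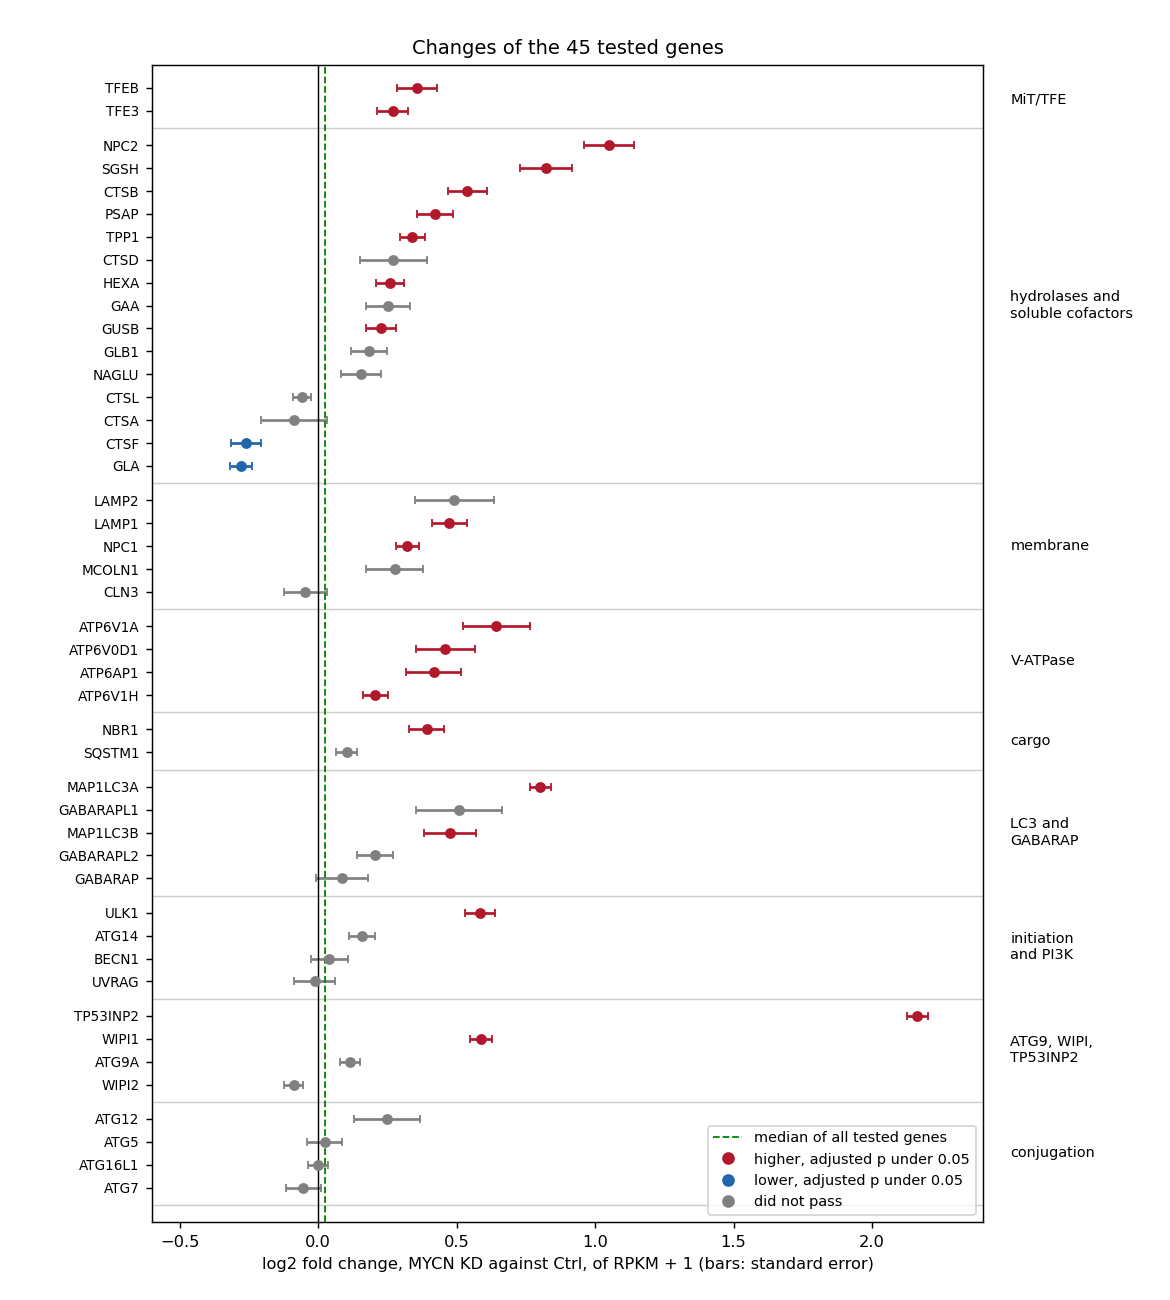
Log2 fold change of RPKM + 1 in MYCN KD against Ctrl for the 45 tested genes by role, as points with bars of 1 standard error, with the median of all tested genes (0.026) as a dashed line. Red points were higher and blue points lower by limma, and the 21 red points contrast with 2 blue points, CTSF and GLA.

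Of 5 lysosomal membrane proteins, LAMP1 and NPC1 were higher in MYCN KD and the other 3 did not pass. LAMP1, the abundant glycoprotein that lines the lysosomal membrane (chromosome 13, 113951554 to 113977987, plus strand), was at 97.0 and 90.1 RPKM in Ctrl and at 125.6 and 134.9 RPKM in MYCN KD. It rose by 0.47 on the log2 scale (SE 0.063, adjusted p = 0.0124), and it is the gene with the most E-boxes in the promoters shown above. NPC1, which takes cholesterol from NPC2 and exports it from the lysosome, was at 4.76 and 4.88 RPKM in Ctrl and at 6.35 and 6.20 RPKM in MYCN KD. The groups of NPC1 were apart, with a rise of 0.32 (SE 0.042, adjusted p = 0.0116), and adjusted p from 0.0535 to 0.0940 when any 1 sample was left out. CLN3, a lysosomal membrane protein mutated in juvenile Batten disease, had the smallest difference, at 36.2 and 32.9 RPKM in Ctrl and at 31.9 and 34.9 RPKM in MYCN KD. Its groups overlapped (log2 fold change -0.05, SE 0.077, adjusted p = 0.642). LAMP2, the relative of LAMP1 that also serves as a receptor in chaperone-mediated autophagy, was at 5.55 and 6.82 RPKM in Ctrl and at 10.0 and 8.20 RPKM in MYCN KD. Its MYCN KD samples were both the higher ones, with a log2 fold change of 0.49 (SE 0.14, adjusted p = 0.0623). The change was 0.36 to 0.62 with 1 sample left out, and LAMP2 passed under quantile normalization (adjusted p = 0.0361). MCOLN1, the lysosomal cation channel, did not pass (log2 fold change 0.28, adjusted p = 0.103), and its change was 0.19 to 0.37 with 1 sample left out.

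The 4 V-ATPase genes of the list were all higher in MYCN KD, 1 in the membrane sector V0, 2 in the cytoplasmic sector V1 and 1 accessory subunit. ATP6V1A, the catalytic subunit that hydrolyses ATP, was at 19.0 and 22.4 RPKM in Ctrl and at 35.4 and 30.3 RPKM in MYCN KD. The gap exceeded the spread within each group, at a log2 fold change of 0.64 (SE 0.12, adjusted p = 0.0250). ATP6V1H, a regulatory subunit of the same sector, was at 18.3 and 19.1 RPKM in Ctrl and at 22.1 and 21.2 RPKM in MYCN KD. Its rise was 0.21 (SE 0.046, adjusted p = 0.0349), the smallest of the 4, and each left-out sample ended the call (adjusted p from 0.137 to 0.307). ATP6V0D1, which links the rotor to the membrane ring, was at 100.2 and 87.5 RPKM in Ctrl and at 121.0 and 137.9 RPKM in MYCN KD. The difference was 0.46 on the log2 scale (SE 0.11, adjusted p = 0.0383) with no overlap. ATP6AP1, an accessory subunit needed for assembly, was at 158.6 and 140.0 RPKM in Ctrl and at 187.5 and 211.7 RPKM in MYCN KD. It also stood apart, with a log2 fold change of 0.42 (SE 0.099, adjusted p = 0.0408).

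The remaining V-ATPase genes were called at about the rate of all genes. Of 14 tested, 3 were higher and 3 were lower, 21.4% in each direction against 25.3% and 22.8% of all tested genes, with a median log2 fold change of 0.08. Over all 18 tested subunits 7 were higher (38.9%) and 3 lower (16.7%). ATP6V1D (0.40, adjusted p = 0.00653), ATP6V1B2 (0.26, adjusted p = 0.0153) and the accessory subunit ATP6AP2 (0.23, adjusted p = 0.0291) rose. ATP6V1G1, a stalk subunit, was at 105.0 and 102.4 RPKM in Ctrl and at 72.4 and 74.3 RPKM in MYCN KD and fell by 0.49 (adjusted p = 0.00489). ATP6V0B of the membrane ring fell by 0.39 (adjusted p = 0.0199) and ATP6V0A2 by 0.18 (adjusted p = 0.0424), the latter not past the threshold with samples rescaled to equal totals (adjusted p = 0.139). ATP6V0C was at 288.0 and 242.3 RPKM in Ctrl and at 179.7 and 212.7 RPKM in MYCN KD. Its difference of -0.43 did not pass (adjusted p = 0.0726). Called or not, both MYCN KD values were above both Ctrl values for 6 of the 14 (42.9%, near the 40.4% of all tested genes). Both were below them for 6 (42.9%, against 35.8% of all tested genes). Leaving out any 1 sample ended the calls of ATP6V0A2 and ATP6AP2 (adjusted p from 0.269 to 0.410 and from 0.0685 to 0.208), and leaving out Ctrl replicate 1 or MYCN KD replicate 1 that of ATP6V1B2 (0.0862 and 0.0977).

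**Figure D3:**
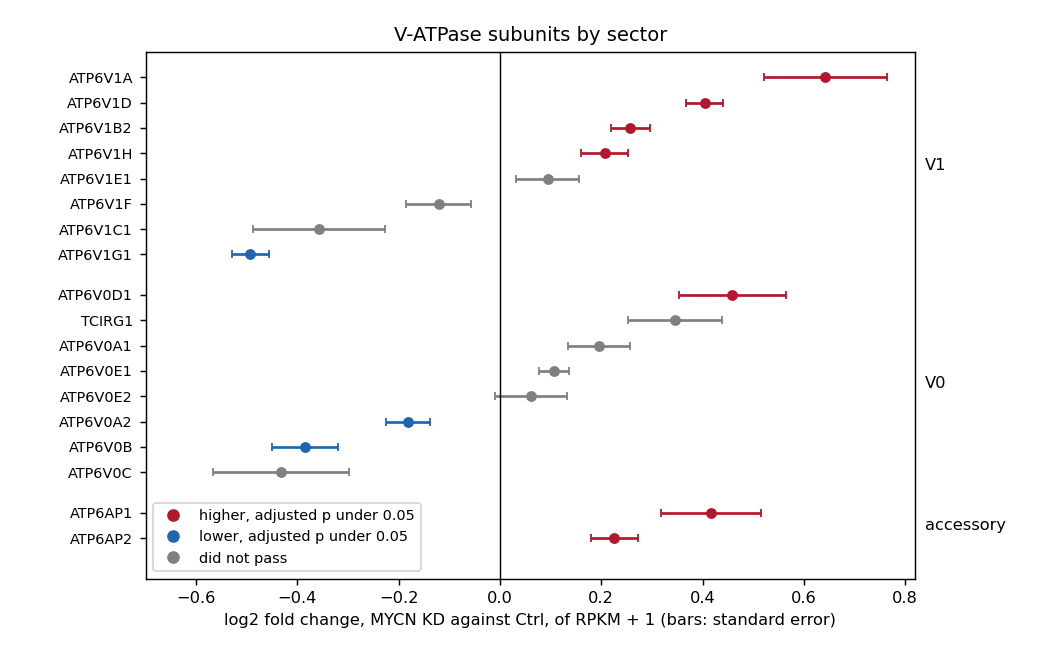
Log2 fold change of RPKM + 1 in MYCN KD against Ctrl for the 18 tested V-ATPase genes, ordered by sector, with bars of 1 standard error. Higher genes are in red, lower genes in blue and those that did not pass in grey, and both the V1 and the V0 sector hold genes of either direction.

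Of the 2 cargo receptors, NBR1 was higher and SQSTM1 did not pass. NBR1, which tethers ubiquitin-marked cargo to LC3, was at 13.3 and 14.3 RPKM in Ctrl and at 19.0 and 17.7 RPKM in MYCN KD. Both MYCN KD samples were above both Ctrl samples (log2 fold change 0.39, SE 0.062, adjusted p = 0.0172). SQSTM1, or p62, the receptor of the same kind with the higher level, was at 67.8 and 65.8 RPKM in Ctrl and at 70.7 and 72.9 RPKM in MYCN KD. Its groups were also apart, but the difference of 0.10 (SE 0.039) did not pass (adjusted p = 0.107), and it did under rescaling to equal totals (0.16, adjusted p = 0.0215) and quantile normalization (0.16, adjusted p = 0.0326). Whether NBR1 and SQSTM1 differed from each other was not tested.

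In the LC3 and GABARAP family, whose members are attached to the autophagosome membrane, the 2 LC3 genes were higher and the 3 GABARAP genes did not pass. MAP1LC3A was at 7.56 and 7.63 RPKM in Ctrl and at 14.1 and 13.9 RPKM in MYCN KD. It rose 1.84 times with little spread (log2 fold change 0.80, SE 0.038, adjusted p = 0.00359). MAP1LC3B, the LC3 most used as an autophagosome marker, was at 36.9 and 41.5 RPKM in Ctrl and at 58.0 and 51.7 RPKM in MYCN KD. Its rise was 0.47 (SE 0.094, adjusted p = 0.0274), with both MYCN KD samples above Ctrl. The near-identical MAP1LC3B2, with which it may share reads, was at 2.99 to 3.76 RPKM and did not pass (adjusted p = 0.446).

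GABARAP, the most abundant of the family, was at 268.5 and 238.6 RPKM in Ctrl and at 253.6 and 284.5 RPKM in MYCN KD. Its groups overlapped (log2 fold change 0.09, SE 0.094, adjusted p = 0.495). GABARAPL1 was at 4.85 and 6.10 RPKM in Ctrl and at 9.11 and 7.31 RPKM in MYCN KD. Here the groups did not overlap, and the difference of 0.51 (SE 0.16) did not pass (adjusted p = 0.0700). It was 0.37 to 0.65 with 1 sample left out, and it passed under quantile normalization (adjusted p = 0.0421). GABARAPL2 was at 52.0 and 56.1 RPKM in Ctrl and at 64.7 and 60.1 RPKM in MYCN KD. Both MYCN KD samples were above Ctrl by a smaller margin (log2 fold change 0.20, SE 0.065, adjusted p = 0.0766). Summed over the 5 genes, the level was 369.8 and 350.0 RPKM in Ctrl, against 399.5 and 417.5 RPKM in MYCN KD, 1.13 times the Ctrl mean. GABARAP alone made up 72.6% and 68.2% of it in Ctrl and 63.5% and 68.1% in MYCN KD.

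Of the 4 tested initiation and PI3-kinase genes, ULK1 was the 1 that passed. ULK1, the kinase that initiates autophagy and that mTORC1 inhibits (chromosome 12, 132379167 to 132407695, plus strand), was at 9.14 and 8.61 RPKM in Ctrl and at 13.4 and 14.2 RPKM in MYCN KD. The groups were apart at a ratio of 1.55 and a log2 fold change of 0.58 (SE 0.055, adjusted p = 0.00690). Its paralog ULK2 was below the minimum, at 0.663 and 0.743 RPKM in Ctrl and at 0.896 and 0.806 RPKM in MYCN KD. The 3 genes of the class III PI3-kinase complexes did not pass. UVRAG, a subunit of the complex that acts in later steps, had the smallest difference, at 6.43 and 7.09 RPKM in Ctrl and at 7.01 and 6.39 RPKM in MYCN KD. Its groups overlapped (log2 fold change -0.01, SE 0.075, adjusted p = 0.902). BECN1, the core subunit of both complexes, overlapped too (log2 fold change 0.04, adjusted p = 0.645), and ATG14, of the initiating complex, had both MYCN KD values above Ctrl (0.16, adjusted p = 0.0644).

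TP53INP2 had the largest difference of the 48 genes. It encodes a protein that shuttles between nucleus and autophagosome and binds LC3 (chromosome 20, 33292143 to 33301243, plus strand). It was at 9.10 and 9.25 RPKM in Ctrl and at 45.0 and 44.2 RPKM in MYCN KD. The MYCN KD mean was 4.86 times the Ctrl mean, with a log2 fold change of 2.16 (SE 0.037, adjusted p = 0.00359). WIPI1, which binds the phosphoinositide made by the PI3-kinase at the growing membrane, was at 4.09 and 4.01 RPKM in Ctrl and at 6.55 and 6.65 RPKM in MYCN KD. It rose by 0.59 (SE 0.040, adjusted p = 0.00452), 1.63 times its Ctrl mean. Exons of WIPI1 share 829 bases, 24.4% of its exon bases, with ARSG on the opposite strand, and ARSG was at 4.83 and 4.78 RPKM in Ctrl and at 4.34 and 4.39 RPKM in MYCN KD. ARSG, named for this overlap, did not pass (adjusted p = 0.0872). WIPI2, the paralog that recruits ATG16L1, was at 20.4 and 20.2 RPKM in Ctrl and at 18.9 and 19.1 RPKM in MYCN KD. Its values were lower in both MYCN KD samples but did not pass (log2 fold change -0.09, SE 0.035, adjusted p = 0.119). ATG9A, the lipid scramblase carried on vesicles to the growing membrane, did not pass either (0.12, adjusted p = 0.0728), but did under rescaling to equal totals (0.18, adjusted p = 0.0180) and quantile normalization (0.17, adjusted p = 0.0267).

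None of the 4 genes of the conjugation machinery, which attaches LC3 and GABARAP proteins to lipid, passed, with limma giving 0 of 4 also at an unadjusted p under 0.05. ATG16L1 had the smallest difference of all 45 genes, at 21.1 and 21.3 RPKM in Ctrl and at 21.3 and 21.1 RPKM in MYCN KD. Its groups covered the same range (log2 fold change -0.000544, SE 0.035, adjusted p = 0.991). The groups of ATG5 and of ATG7, the activating enzyme, also overlapped, with log2 fold changes of 0.02 and -0.05. Under quantile normalization ATG7 was called lower (-0.15, adjusted p = 0.0499). ATG12 was at 6.20 and 7.33 RPKM in Ctrl and at 8.90 and 7.57 RPKM in MYCN KD, with both MYCN KD values above Ctrl (0.25, SE 0.12, adjusted p = 0.168). Its change was 0.14 to 0.35 with 1 sample left out.

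Genes with CACGTG in the promoter went both ways. Of the 9, LAMP1 and ATP6V0D1 were higher, CTSF was lower and 6 did not pass, with a median log2 fold change of 0.25. Of the 26 tested genes whose promoter had no match, 12 were higher and 1 was lower, with a median of 0.24. Genes for which no promoter was found are outside both counts. These were CTSB, PSAP, SGSH, HEXA, ATP6V1A, ATP6V1H and MAP1LC3A, all called higher, and LAMP2, NAGLU and UVRAG, which did not pass. The counts therefore do not describe the whole list. TP53INP2, NPC2, ULK1 and WIPI1 were among those without a match. Over all tested genes with a promoter, 19.7% of 1119 with CACGTG were higher and 32.5% were lower, with a median of -0.07. Of 7370 without it, 25.6% were higher and 21.4% were lower, with a median of 0.04. Of the 206 tested genes with TCACGTGA, 52 were higher and 52 were lower.

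**Figure D4:**
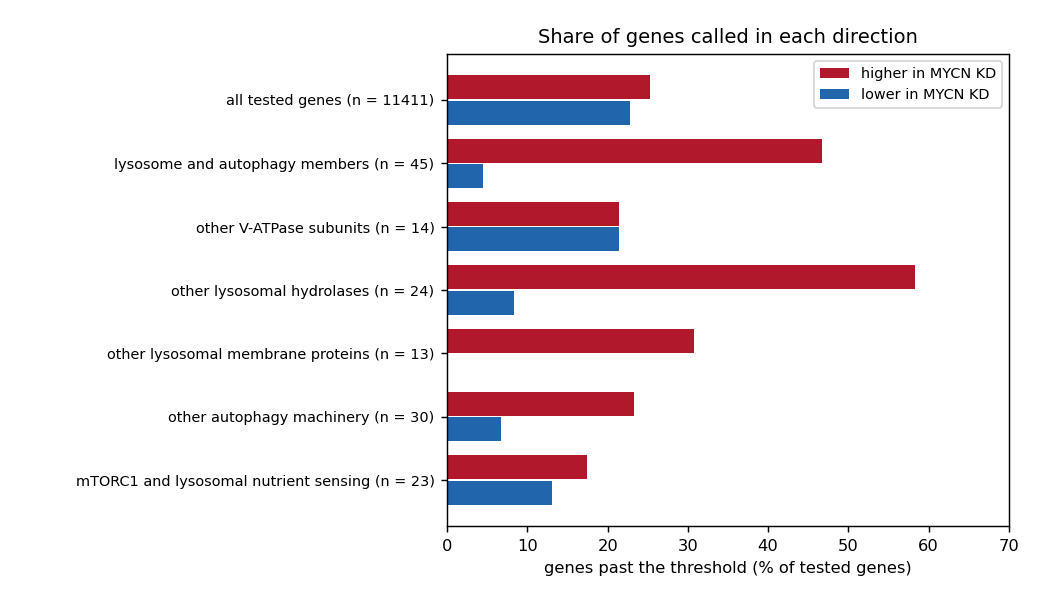
Share of tested genes called higher (red) or lower (blue) after MYCN knockdown by limma, in % of the tested genes, for all genes, the lysosome and autophagy genes and 5 lists of other genes of the same pathways. The bars show 46.7% higher and 4.44% lower for the 45 genes, 58.3% and 8.33% for the 24 genes of the other hydrolase list, and 25.3% and 22.8% for all 11411 genes.

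Other genes of the same pathways, 114 in 5 lists, were counted from the same fit. Of 104 tested, 32 were higher (30.8%) and 10 were lower (9.62%), against 25.3% and 22.8% of all tested genes, with a median log2 fold change of 0.10. The hydrolases stood highest, with 14 of 24 higher (58.3%) and 2 lower (8.33%) and a median of 0.29. SMPD1, acid sphingomyelinase, was at 9.70 and 8.58 RPKM in Ctrl and at 21.5 and 24.1 RPKM in MYCN KD and had the largest rise of its list, 1.23 (adjusted p = 0.00510). HGSNAT, an acetyltransferase of heparan sulfate breakdown, rose by 1.10 (adjusted p = 0.00359) and ARSA, arylsulfatase A, by 1.05 (adjusted p = 0.0114). HGSNAT, SUMF1 and GM2A are counted in this list but are not hydrolases. The cysteine protease CTSC fell by 0.66 (adjusted p = 0.00440) and PPT1, which removes palmitate from proteins, by 0.34 (adjusted p = 0.0199). Counted together with those of the list, 21 of 39 tested genes of the hydrolase lists were higher (53.8%) and 4 were lower (10.3%), against the same shares of all tested genes.

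Of 13 other membrane proteins, 4 were higher (30.8%, near the 25.3% of all tested genes) and 0 were lower (2 at an unadjusted p under 0.05), against 22.8%. Their median log2 fold change was 0.05. Both MYCN KD values were above both Ctrl values for 4 (30.8%, against 40.4% of all tested genes) and below them for 3 (23.1%, against 35.8%). Among the higher genes were CD63 (0.60, adjusted p = 0.00604), SLC17A5, the sialic acid exporter (0.55, adjusted p = 0.00750), and SCARB2, which carries beta-glucocerebrosidase to the lysosome (0.55, adjusted p = 0.0273). The other autophagy genes gave 7 higher (23.3%, near the 25.3% of all tested genes) and 2 lower (6.67%) of 30, with a median of 0.08. OPTN, a receptor for damaged mitochondria, was at 1.97 and 2.23 RPKM in Ctrl and at 10.0 and 8.88 RPKM in MYCN KD. Its rise of 1.75 (SE 0.085, adjusted p = 0.00359) was the largest of the 5 lists. TOLLIP (0.52, adjusted p = 0.0174) and the LC3 protease ATG4A (0.50, adjusted p = 0.0145) also rose, and SNAP29, which fuses autophagosome and lysosome, fell by 0.23 (adjusted p = 0.0294) and FUNDC1, another mitochondrial receptor, by 0.16 (adjusted p = 0.0347). These 2 falls were not called with samples rescaled to equal totals (adjusted p = 0.0886 and 0.123) or when any 1 sample was left out (adjusted p from 0.128 to 0.265 and from 0.321 to 0.392).

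Genes of mTORC1 and of nutrient sensing at the lysosome gave 4 higher (17.4%) and 3 lower (13.0%) of 23, both below the shares of all tested genes (25.3% and 22.8%), with a median of 0.08. FLCN, an activator of the RagC route by which mTORC1 acts on MiT/TFE factors, rose by 0.65 (adjusted p = 0.0179), and the Rag GTPase genes RRAGC and RRAGA each rose by 0.47 (adjusted p = 0.0313 and 0.00452). Of the other Rag genes, named after their values were seen, RRAGD was at 5.17 and 6.08 RPKM in Ctrl and at 4.42 and 3.79 RPKM in MYCN KD and did not pass (-0.38, adjusted p = 0.0606), and RRAGB overlapped (0.08, adjusted p = 0.439). MLST8, an mTOR subunit, fell by 0.39 (adjusted p = 0.0437). RRAGC and MLST8 were not called without the minimum RPKM (adjusted p = 0.0510 and 0.0680). NPRL2 and DEPDC5, which together form part of the complex that restrains mTORC1, fell by 0.31 (adjusted p = 0.0101) and 0.15 (adjusted p = 0.0483). NPRL3, of the same complex, had overlapping groups and was not called (-0.02, adjusted p = 0.915). DEPDC5 was not called when any 1 sample was left out (adjusted p from 0.377 to 0.468), without the minimum (0.0882) or after rescaling (0.103), nor was NPRL2 without Ctrl replicate 1 (0.0631) or MYCN KD replicate 1 (0.0723) or 2 (0.0519).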

How the data were processed

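RNA-seq of 2 Ctrl and 2 MYCN KD samples was used, grouped by the sample titles. The reads had been aligned by the authors (HISAT2 2.1.0, build hg19 per the labels) and counted per RefSeq gene (featureCounts). A DESeq2 model and RUVSeq, which takes out unwanted variation, followed, and the authors deposited the normalized counts as RPKM, 1 table per sample. The RUVSeq variant and the strand setting are not given in the sources used here. Sample totals were recovered from RPKM steps of small RNA genes, of which 93.4% to 93.8% came out whole (tolerance 0.0001 reads), and all 19908 genes above 0 then gave whole reads (tolerance 0.001). A gene's reads are known up to a common factor and are minimum values. Since reads were adjusted before deposit, they give counting precision only.

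log2(RPKM + 1) was fitted with limma 3.58.1 (lmFit, eBayes with a trend) in R 4.3.3 for 11411 genes averaging 1 RPKM or more, with group as the sole term and Benjamini-Hochberg adjusted p-values at 0.05. The script was tested on simulated data. With 2 samples per group an exact two-sided permutation test cannot go below p = 0.3333 and was not used. Python 3.11.15, pandas 2.3.3 and matplotlib 3.10.9 were used. Positions came from GENCODE release 44 lifted to GRCh37, and promoters from RefSeq (GRCh38.p14). The members and lists were chosen with earlier results of these data known. Genes were named by a rule: all MiT/TFE, V-ATPase, cargo receptor and LC3 or GABARAP genes of the list, in other groups up to 5 past the threshold in each direction and the smallest difference, and the 3 largest called rises and falls of each further list with groups apart. Other genes, such as LAMP2, CTSA, MCOLN1, ATG12, HEXA, GUSB, ATP6V0C and those named for an overlap, were named after their values were seen. Alternatives were a pseudocount of 0.1, no minimum, a minimum of 5 RPKM, rescaling to equal totals, quantile normalization, no trend in eBayes, the replicate block and leaving out each sample. ChIP-seq, MNase-seq, qPCR and blots were not analysed here.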

Additional observations from a re-analysis of the deposited data

How the results depend on the processing

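Of the 23 called genes of the list, 12 kept their call under each alternative that tested them, the added ones included: ATP6V1A, CTSB, LAMP1, MAP1LC3A, MAP1LC3B, NBR1, NPC2, PSAP, SGSH, TP53INP2, ULK1 and WIPI1. No called gene of the list changed direction under any alternative. Over the alternatives that kept all samples and had no block, 18 to 26 genes of the list were higher and 2 or 3 lower, against 17.0% to 28.7% and 13.0% to 26.8% of all tested genes. Without the minimum, GUSB, ATP6V0D1 and ATP6AP1 lost their calls (adjusted p = 0.0612, 0.0614 and 0.0651). Rescaling to equal totals gave a median log2 fold change of 0.32 for the list and 6 lower among the 104 other pathway genes. It turned 3 uncalled genes of the list, CLN3 (0.0122), UVRAG (0.0408) and ATG16L1 (0.0578), and quantile normalization turned ATG5 (-0.0353) and ATG16L1 (0.00274), all with differences near 0.

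Leaving out 1 sample in turn gave 18 to 21 higher and 0 to 1 lower in the list, a median of 0.23 to 0.30, against 21.6% to 24.4% higher, 18.9% to 21.3% lower and a median of 0.0053 to 0.046 over all tested genes, and 25 to 27 higher and 8 to 12 lower among the other pathway genes. With limma, 0 of the list were lower without Ctrl replicate 2 or MYCN KD replicate 2 (2 at an unadjusted p under 0.05 in each), and 1 was lower without Ctrl replicate 1 or MYCN KD replicate 1. A lone sample is assumed to vary like the other group. Adjusted p-values of large changes came out far smaller in these fits than with all 4 samples. Calls were both gained and lost in them, and therefore need not mean a changed difference. For the genes of the list that gained one (LAMP2, GABARAPL1, CTSD, MCOLN1 and ATG12) the change alone is given above. Uncalled genes that changed sign ranged from -0.196 to 0.0198 (CTSA), -0.113 to 0.0192 (CLN3), -0.0140 to 0.0944 (BECN1), -0.0259 to 0.0716 (ATG5), -0.0737 to 0.0490 (UVRAG) and -0.00840 to 0.00731 (ATG16L1). MYCN stayed between -0.58 and -0.57.

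Replicate 1 and replicate 2 deviated in opposite ways in the 2 groups (r = -0.985), so the labelled numbers do not pair the samples. With the replicate block, 16 genes of the list were higher and 0 lower by limma (19 and 0 at an unadjusted p under 0.05), against 18.2% and 16.2% of all tested genes, and 20 of the other pathway genes were higher and 7 lower. TFEB, TFE3, CTSF, GLA, GUSB, HEXA, TPP1, NPC1 and ATP6V1H were not called with it, and LAMP2 and GABARAPL1 were. Its adjusted p-values are not comparable with those of the main fit either (for TP53INP2 6.07e-40 against 0.00359 by limma). A crossed replicate block, added after seeing the data, gave 36 higher and 8 lower in the list and 64 and 38 among the others, but it called 51.8% of all tested genes higher and 46.1% lower, so these counts say nothing about the list. limma voom on the recovered reads, also added after seeing the data, gave 21 and 2, and 32 and 11. The cause of these changes was not tested. The tested genes of the list had at least 178 reads each, and precision is limited by 2 samples per group, near-mirrored deviations, with which the replicates may not be independent, and reads adjusted before deposit.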

Other observations

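TP53INP2 and MAP1LC3A, whose proteins bind each other, lie 143993 bases apart on chromosome 20 in GRCh37, on the same strand. Of PIGU, which the deposited tables list between them, the level was 27.0 and 26.0 RPKM in Ctrl, against 23.3 and 24.2 RPKM in MYCN KD, with a log2 fold change of -0.15 that did not pass (limma, adjusted p = 0.0571). These genes were put side by side after their values were seen.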
